A study of Solanum tuberosum with 6 samples.

Results

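Clones annotated as pectin methylesterases were followed on 6 cDNA arrays of potato leaves after salt watering. They were chosen by name: of the 10499 clones in the table, 16 carried an annotation with the words pectin methylesterase, pectinesterase or a spelling of these, and clones named for invertase were left out. The family was picked with its salt ratios already known, among them a strong fall of STMIU31, so the salt ratios below describe the clones and their tests are not independent evidence. The material was the first and second leaves of Solanum tuberosum cultivar PS3, grown from in vitro plantlets that had been acclimatized to pots for 2 months. Salt plants received 75 mL of 150 mM NaCl, and control plants as much tap water. Leaves 3 days and 1 day after the watering came from separate sets of plants, with 3 arrays per day, each hybridised with 1 of 3 biological replicates of either treatment. An array paired salt RNA in Cy5 or Cy3 with control RNA in the opposite dye, and every value is a log ratio of these, read here as salt over control.

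Pectin methylesterases are wall enzymes that remove methyl groups from homogalacturonan, the main backbone of pectin. Wall pectin is laid down highly methylated, and its demethylation lets calcium bridge neighbouring chains or opens them to polygalacturonases and pectate lyases, so the enzymes bear on wall stiffness, growth and cell adhesion. Plants hold them as a large gene family, and proteins of the invertase inhibitor superfamily block them by binding the active site. Of the 16 annotations 0 named such an inhibitor.

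No source states which way the ratios run, and the array titles name control before salt, which could be read as control over salt. Salt over control is thus a likely direction only. Its basis is that control is labelled as the reference channel. In addition, arrays of the same day but opposite dyes correlated above 0 over all clones (r between 0.475 and 0.639), and no array was turned here. Between the days, arrays of opposite dyes correlated with r of 0.222, -0.086, 0.081 and 0.259. A dye effect per clone could also give a correlation above 0, and its part was not tested. With control over salt each fall below would be a rise. Base 2 was taken for the logarithm, which is not stated either, and folds hold only for that base. Between 7867 and 10381 clones were measured per array. Replicate 1 of day 3 stood apart from the arrays of day 1, with r of 0.031, -0.086 and 0.006. The arrays give ratios and no levels, so a leaf identity cannot be read from them, but all 30 clones of Rubisco small subunit and chlorophyll a/b-binding protein were measured on 6 arrays. Of these leaf clones 2 were called lower on day 3 and 27 on day 1, with medians of -0.06 and -1.72. Of 11 clones of patatin, the tuber storage protein, 0 of 5 tested on day 3 and 1 of 7 on day 1 were lower. The part of such shifts in the ratios of the pectin methylesterases was not tested. Fewer cells of a type and less RNA per cell cannot be told apart in whole leaves.

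The 16 clones carried 12 distinct annotations, each naming the most similar known protein. Only STMIU31 was annotated from potato itself and STMGF63 from tomato (pectinesterase U1 precursor), while 6 were named from Arabidopsis and 3 from chickpea. By the table's transcript assemblies the clones fell into 13 groups. The chickpea-named STMDT08, STMDT89 and STMIZ59 shared an assembly, as did STMHX17 and STMJG27, so the clones within each of these groups may report on 1 gene. No other clone of the table shared an assembly with them. Of the 16 clones, 13 carried the gene ontology term for pectinesterase activity and 2 had no term. The remaining one, STMGU33 (pectinesterase-like protein), carried copper ion binding in its place, so its name and its ontology term disagree. No clone could be placed on a gene of the potato reference from the tables used here, and no sequence is shown for that reason.

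STMIU31, named pectin methyl esterase of potato, had the lowest ratio of the family on 6 of 6 arrays. On day 3 its log2 ratios were -2.50, -2.67 and -2.63 on replicates 1, 2 and 3, and on day 1 they were -2.24, -2.96 and -2.20. All 6 lay below -2, which held for 4 of the 7632 clones measured on all arrays, and counted from the lowest its rank on an array lay between 11 and 52. The mean was -2.60 ± 0.09 on day 3 and -2.47 ± 0.43 on day 1 (SD, n = 3 each), with replicate 2 the lowest on either day. In a fit of all 6 arrays with a term for dye, the log2 ratio was -2.67 (SE 0.13) on day 3 and -2.54 (SE 0.13) on day 1. On base 2 that is 6.36-fold and 5.81-fold lower in salt than in control.

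STMGF63 and STMJK74 came next, below every other member but STMIU31 on 6 of 6 arrays. For STMGF63, close to the tomato pectinesterase U1, the log2 ratios were -1.34, -1.01 and -0.86 on day 3, against -1.19, -1.31 and -1.59 on day 1. Its fitted ratio was -1.06 (SE 0.14) on day 3 and -1.35 (SE 0.14) on day 1, or 2.08-fold and 2.55-fold lower in salt. STMJK74, close to pectinesterase-3 of kidney bean, had -1.25, -0.79 and -1.09 on day 3 and -1.10, -1.04 and -1.43 on day 1. Its fitted ratio was -0.99 (SE 0.12) on day 3 and -1.14 (SE 0.12) on day 1. The sets of values of these clones overlapped: STMGF63 was the lower one on 5 of 6 arrays, and their averages over both days, -1.20 (SE 0.10) and -1.06 (SE 0.09), were apart by less than the sum of both SEs. Both were apart from STMIU31 on every array.

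**Figure D1:**
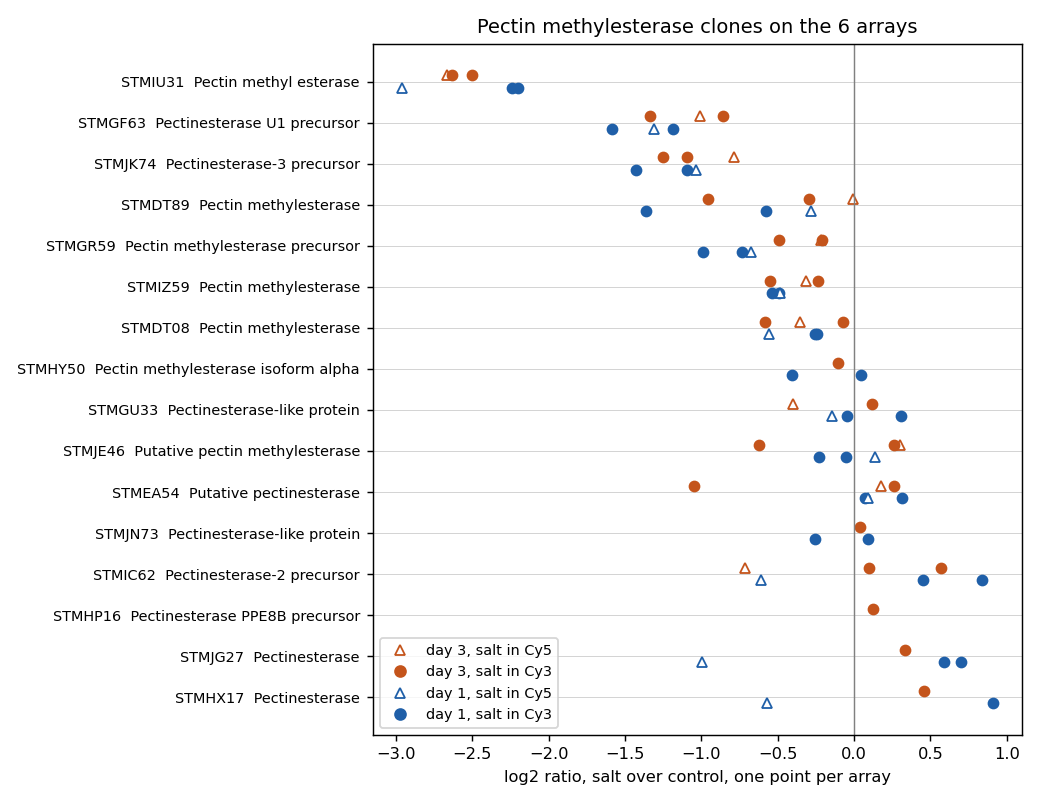
Log2 ratios of salt over control for the 16 clones, one point per array, with day 3 in orange above day 1 in blue and triangles for salt in Cy5. STMIU31 lies between -2.96 and -2.20 on all arrays, and STMIC62, STMJG27 and STMHX17 lie left of 0 only where salt was in Cy5.

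A middle group of 4 clones had ratios between -1.36 and -0.01 on single arrays, all below 0. With these, 7 of the 10 members measured on all 6 arrays were below 0 on each, as were 7.73% of all such clones. STMGR59, close to a pectin methylesterase precursor of Sesbania, gave -0.50, -0.22 and -0.21 on day 3 and -0.73, -0.68 and -0.99 on day 1. All values of day 3 were nearer to 0 than any of day 1. Its fitted ratio was -0.28 (SE 0.12) on day 3 and -0.77 (SE 0.12) on day 1.

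The 3 chickpea-named clones of one assembly had close averages over both days, from -0.47 to -0.37, and differed in their spread. STMIZ59 was the steadiest, with -0.55, -0.32 and -0.24 on day 3 and -0.49, -0.48 and -0.54 on day 1. STMDT08 had -0.59, -0.35 and -0.07 on day 3 and -0.26, -0.56 and -0.25 on day 1. STMDT89 ranged most, with -0.96, -0.01 and -0.30 on day 3 and -0.58, -0.29 and -1.36 on day 1. In each of these 3 clones the days overlapped.

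The other clones measured on at least 5 arrays lay around 0. STMEA54, a putative pectinesterase, had -1.05 on replicate 1 of day 3 but 0.18 and 0.26 on replicates 2 and 3, and on day 1 it had 0.07, 0.09 and 0.31. STMJE46, a putative pectin methylesterase, showed the same split, with -0.62 but then 0.30 and 0.26 on day 3, and -0.23, 0.14 and -0.06 on day 1. Both low values came from the array that stood apart from those of day 1. With the other arrays of day 3 it correlated at r of 0.475 and 0.523 over all clones. STMGU33, the clone with the copper term, was measured on 5 arrays and lay between -0.40 and 0.31.

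Ordered by the fitted average over both days, the 11 clones that allowed one formed 3 steps. STMIU31 at -2.60 was 1.40 below STMGF63, and STMJK74 at -1.06 was 0.54 below STMGR59. STMDT08, the last of the middle group at -0.37, was 0.29 below STMIC62, where both SEs summed to 0.20. Within the pair, the middle group and the clones around 0, no neighbours in the order were further apart than the sum of their SEs. Averages of the last group ran from -0.09 (STMIC62) to 0.03 (STMJE46).

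On day 3, 5 clones were measured on replicate 1 alone. This was 31.3% of the family, and 13.6% of all clones were measured on under 2 arrays of that day. STMHP16, named for peach pectinesterase PPE8B, had a single value, 0.13. STMHY50, named for mung bean isoform alpha, had -0.11 on day 3 and 0.04 and -0.41 on day 1, and STMJN73, a pectinesterase-like protein, had 0.04 on day 3 and 0.09 and -0.26 on day 1. For STMHY50 and STMJN73 all values came from arrays with salt in Cy3, so salt and dye cannot be told apart in them and they were not tested. STMHX17 and STMJG27 were the others. STMHX17 had only as many values as the fit had terms, so it was not tested.

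The ratios of 3 clones had one sign on the replicate 2 arrays, where salt was in Cy5, and the other sign on the arrays with salt in Cy3. Dye and replicate 2 cannot be told apart, since no other array had salt in Cy5, and for STMJG27 and STMHX17 a single such array was measured. STMIC62, named for orange pectinesterase-2, had -0.72 and -0.61 where salt was in Cy5 (replicate 2 of day 3 and of day 1), and where salt was in Cy3 it had 0.10 and 0.57 on day 3 and 0.45 and 0.84 on day 1. STMJG27 had -0.998 with salt in Cy5 on day 1, and with salt in Cy3 it had 0.33 on day 3 and 0.59 and 0.70 on day 1. STMHX17, of the same assembly as STMJG27, had -0.57 with salt in Cy5 on day 1, and with salt in Cy3 it had 0.46 on day 3 and 0.91 on day 1. This sign pattern held for 3 of 13 members measured in both orientations and for 8.34% of all such clones.

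The dye term of the fit is added where salt is in Cy5 and subtracted where it is in Cy3. It was -0.58 (SE 0.10) for STMIC62 and -0.82 (SE 0.13) for STMJG27, with an adjusted p of 0.0515 for each by limma over all clones. The term had an unadjusted p under 0.05 in 3 of 12 members and in 1823 of 9742 clones. It passed adjustment in 0 of these members and in 0 of these clones. Over the other settings that gave one, the adjusted p lay between 0.0212 (without replicate 1 of day 3) and 0.938 (without replicate 2 of day 1) for STMIC62. For STMJG27 it lay between 0.0223 (without replicate 1 of day 3) and 0.0747 (without replicate 2 of day 3). It was also under 0.05 for both with the arrays scaled to equal spread (0.0389 and 0.0444) and without replicate 3 of day 3 (0.0424 and 0.0286). For STMIU31 the term was -0.21 (SE 0.10), small beside its ratio: the mean ratio was -2.81 over 2 arrays with salt in Cy5 and -2.39 over 4 arrays with salt in Cy3. For STMGF63 these means were -1.16 and -1.24, and for STMJK74 -0.91 and -1.22. If the deposited ratios had not been turned to one direction, the dye term and not the day's ratio would carry the salt response, and a ratio like that of STMIU31 would be a dye effect.

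**Figure D2:**
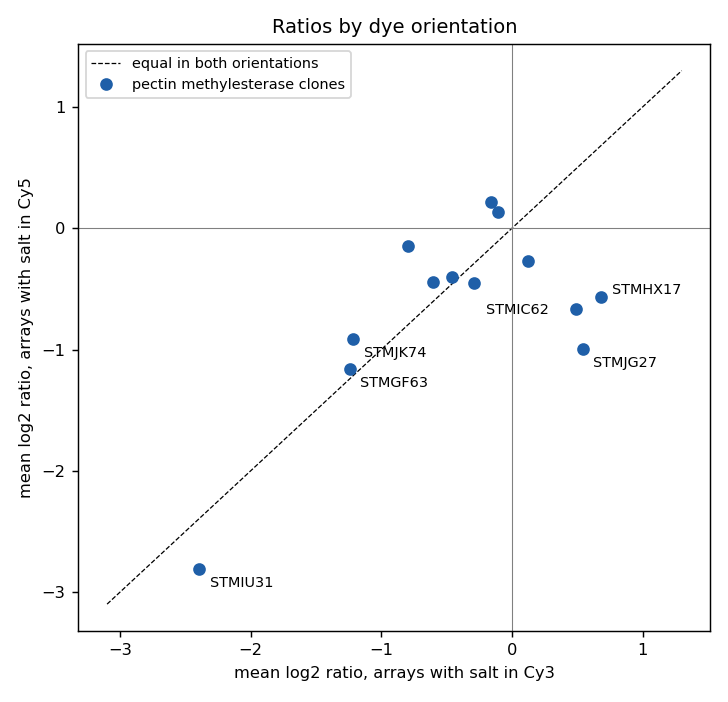
Mean log2 ratio of each clone over arrays with salt in Cy5 (vertical) against arrays with salt in Cy3 (horizontal), for the 13 clones measured in both orientations. STMIU31, STMGF63 and STMJK74 lie near the dashed line of equal means, and STMIC62, STMJG27 and STMHX17 lie at the lower right.

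At an adjusted p under 0.05 over all clones tested, 3 of 11 members were lower and 0 higher on day 3 (STMIU31, STMGF63 and STMJK74), where 4.45% of all clones tested were lower, 1.96% higher and 6.41% either. On day 1, 6 of 12 were lower and 0 higher, where 10.4% of all were lower, 8.11% higher and 18.5% either. The day 1 calls were the 3 of day 3 and STMGR59, STMIZ59 and STMDT89. STMIZ59 and STMDT89 share an assembly, so they may report on 1 gene. Averaged over the days, 7 of 11 were lower and 0 higher, where 10.6% of all were lower, 7.26% higher and 17.8% either. The call added to those of day 1 was STMDT08. No member was higher on either day with limma at an unadjusted p under 0.05 (0 and 0). The share of all clones higher at that threshold is not given here, so this count has no background beside it. Since the family was picked for its fall, nothing is read from these counts against the background. The median fitted ratio of the members was -0.31 on day 3 and -0.44 on day 1, and that of all clones tested was 0.01 and 0.03. Without replicate 2 of day 1 the calls of day 1 were 3, and without replicate 2 of day 3 those of day 3 were 2, STMIU31 and STMJK74. In these settings 4.18% of all clones tested were lower on day 1 and 1.83% on day 3. In the authors' deposited table, 3 of 16 members on day 3 and 5 of 16 on day 1 had an unadjusted p under 0.05, against 9.69% and 19.4% of all clones.

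**Figure D3:**
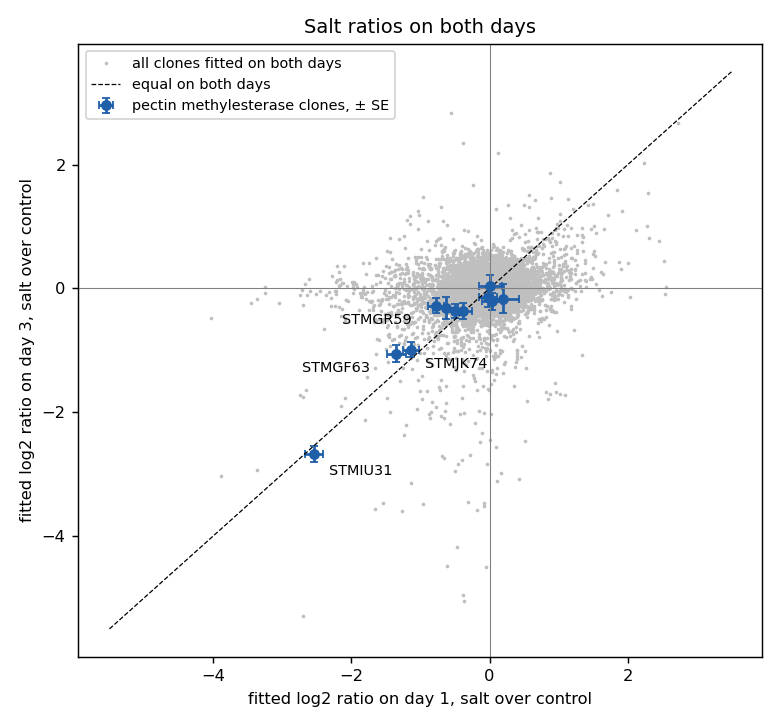
Fitted log2 ratio on day 3 (vertical) against day 1 (horizontal) for all clones in grey and the 11 pectin methylesterase clones fitted on both days in blue, with SE bars and a dashed line of equal ratios. STMIU31, at -2.67 and -2.54, lies on the line far from the bulk, and STMGR59 lies above the line, at -0.28 and -0.77.

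The design also asks whether the salt ratio changed between the days, which was tested as day 3 minus day 1 within the same fit. With limma 0 of 11 members passed at an adjusted p under 0.05, where 11.6% of all clones passed, 5.12% as lower and 6.46% as higher on day 3. At an unadjusted p under 0.05, 1 of 11 members and 2301 of 9028 clones passed. STMGR59 came nearest, with a difference of 0.49 (SE 0.17, 95% interval 0.12 to 0.87, adjusted p = 0.0971), its fitted ratio being nearer to 0 on day 3. Its adjusted p lay between 0.054 and 0.329 over the other settings. For STMIU31 the difference was -0.13, with an interval from -0.54 to 0.28 (adjusted p = 0.711). With the arrays scaled to equal spread it became -0.70 (adjusted p = 0.0552). The difference was 0.29 (-0.14 to 0.72) for STMGF63 and 0.14 (-0.23 to 0.52) for STMJK74. The widest interval, from -1.08 to 0.35, was that of STMEA54. A difference that missed the threshold is not shown to be absent, and the intervals give the sizes the arrays allow.

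**Figure D4:**
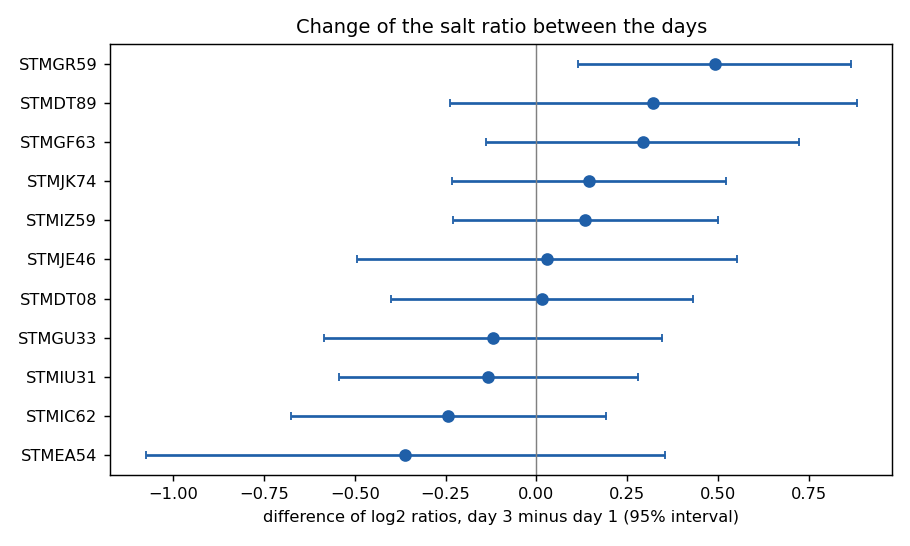
Difference of fitted log2 ratios, day 3 minus day 1, for the 11 clones fitted on both days, with 95% intervals not adjusted for the number of clones. Only the interval of STMGR59, from 0.12 to 0.87, lies off 0, and its adjusted p was 0.0971.

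The clones most like the 3 lowest members were sought by the Euclidean distance of the log2 ratios over the 6 arrays, among 5819 annotated clones measured on all of them. STMGF63 and STMJK74 were near to each other, at a distance of 0.47, as the third and second nearest clones. Near to both were STMEA15, annotated as tomato LEXYL2, a beta-xylosidase (0.50 from STMGF63 and 0.48 from STMJK74), and STMHZ73, a probable cyclic nucleotide-gated channel (0.45 and 0.51). A second LEXYL2 clone, STMEA11, was 0.55 from STMGF63. Nearest of all were STMIB46, an Arabidopsis protein known by its locus name, to STMGF63 (0.37) and the 14-3-3 protein STMJM46 to STMJK74 (0.41). The fifth nearest to STMJK74 was a fimbrin, an actin-bundling protein (STMEA16, 0.52). STMIU31 was one of only 4 of the 7632 clones on all arrays that lay below -2 on each, so few could lie near it. Its nearest annotated clone was the aquaporin-like STMEA30 at 1.66, with fitted ratios of -2.13 on day 3 and -1.80 on day 1. It was followed by an N-acetylglucosaminyltransferase (STMIX44, 1.77), STMCF50 (2.32), a gamma-aminobutyrate transaminase (STMCG71, 2.41) and STMJM27 (2.46). These likenesses are descriptions over 6 arrays of one experiment.

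Invertase inhibitors and pectin methylesterase inhibitors form one protein superfamily, and 2 clones of the table were named for invertase inhibition. STMJC15, a putative invertase inhibitor precursor, had 0.09, 0.44 and 0.27 (log2) on day 3, all below its 1.65, 2.04 and 1.87 of day 1. The fitted ratio was 0.31 (SE 0.12) on day 3 and 1.90 (SE 0.12) on day 1, a difference of -1.59 (SE 0.16, adjusted p = 0.000714 by limma). The other, STMGU47, is named for a Kunitz-type tuber inhibitor, a different protein fold, and lay between -0.25 and 0.40. The single polygalacturonase inhibitor clone, STMGT42, was measured on 1 array of each day, at -0.57 on day 3 and 0.11 on day 1.

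Among 19 clones of pectin depolymerization (pectate lyases, polygalacturonases, beta-galactosidases), 4 of 15 tested were lower and 1 higher on day 3, and 3 of 17 were lower and 1 higher on day 1. Its shares stand beside the same 4.45% lower and 1.96% higher of all clones on day 3, and 10.4% and 8.11% on day 1. The list medians were -0.13 on day 3 and -0.08 on day 1. Pectate lyases cut demethylated pectin, and pectate lyase B (STMGW15) was lower on both days, at -0.88 (SE 0.16, adjusted p = 0.0122) on day 3 and -1.24 (SE 0.16, adjusted p = 0.00105) on day 1. Another pectate lyase, STMGG78, passed on day 3 (-1.12, SE 0.16), with -1.595 and -0.641 on the arrays measured. On day 1 it had -1.237 and -0.947, both with salt in Cy3, and its fitted ratio of -0.615 (SE 0.22) did not pass. The pectate lyase STMGL07 fell on day 1 (-0.85, SE 0.16). A clone like pectate lyase P18, STMGU41, rose on day 3 (0.79, SE 0.18, adjusted p = 0.0376). STMGR50, a beta-galactosidase, changed sides: its ratio was -0.78 (SE 0.14) on day 3 and 0.72 (SE 0.14) on day 1. None of the 7 clones of pectin synthesis passed on either day by limma, with 1 at an unadjusted p under 0.05 on day 3 and 0 on day 1. They include sugar nucleotide enzymes and QUASIMODO1, a glycosyltransferase of homogalacturonan, and their medians were 0.07 and -0.15.

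Enzymes of the xyloglucan network and expansins, which loosen the wall, were lower in 2 of 16 clones and higher in 0 on day 3, where 4.45% of all clones were lower and 1.96% higher. On day 1 they were lower in 8 of 19 and higher in 1, where 10.4% of all were lower and 8.11% higher. The 2 calls of day 3 became 6 with a replicate block in place of the dye term, 5 without replicate 3 of day 3, and 1 without replicate 2 of day 3 or replicate 1 of day 1. Over all clones, the 579 calls of day 3 became 777, 496, 171 and 392 in these settings, in that order. The xyloglucan enzyme XTH7 (STMCV68) was lower on both days, at -1.31 (SE 0.15) and -1.11 (SE 0.15). Expansin clones fell on day 1, STMGB59 at -2.08 (SE 0.20) and STMDH16 at -1.81 (SE 0.13), and had -0.52 (SE 0.20) and 0.02 (SE 0.13) on day 3, where neither passed. The LeXET2 clones STMDB57 and STMER63, of one assembly, had -0.69 (SE 0.21) and -0.92 (SE 0.18) on day 3 and 0.98 (SE 0.21) and 0.48 (SE 0.18) on day 1. Of these 4 values, those of STMER63 on day 3 and of STMDB57 on day 1 passed.

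Structural wall proteins were listed only by words such as extensin, proline-rich and glycine-rich, so some may not be proteins of the wall. They were lower in 5 of 31 clones and higher in 2 on day 3, beside the 4.45% lower and 1.96% higher of all clones. On day 1 they were lower in 9 of 31 and higher in 3, beside 10.4% and 8.11%. A proline-rich protein (STMGL17) was at -1.28 (SE 0.14) on day 3 and -1.65 (SE 0.14) on day 1, and an extensin-like protein (STMCR06) at -1.28 (SE 0.14) and -1.26 (SE 0.14). Extensins are rod-shaped wall glycoproteins that can be crosslinked. The extensin clones STMGX29 and STMIA95 rose on day 3 (1.18, SE 0.22, and 1.02, SE 0.15) and fell on day 1 (-1.16, SE 0.22, and -0.61, SE 0.15). However, the average of the 5 clones with their annotation was -0.22 on day 3, so the others of that annotation lay well below 0 on average that day. In the same list STMID50, STMIK90 and STMJN80 had fitted ratios of -1.05, -1.14 and -1.13 on day 3. On day 1 these were -0.60, -0.64 and -0.90. Glycine-rich clones STMIJ15 and STMHV75 rose on day 1 (0.94, SE 0.13, and 0.82, SE 0.11) and had 0.43 (SE 0.13) and 0.25 (SE 0.11) on day 3. Without replicate 2 of day 1, the calls of day 1 in either direction were 0 for pectin depolymerization, 3 for xyloglucan and expansins and 3 for structural proteins, against 4, 9 and 12 on all arrays. Over all clones they were 536 in that setting, against 1800 on all arrays.

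**Figure D5:**
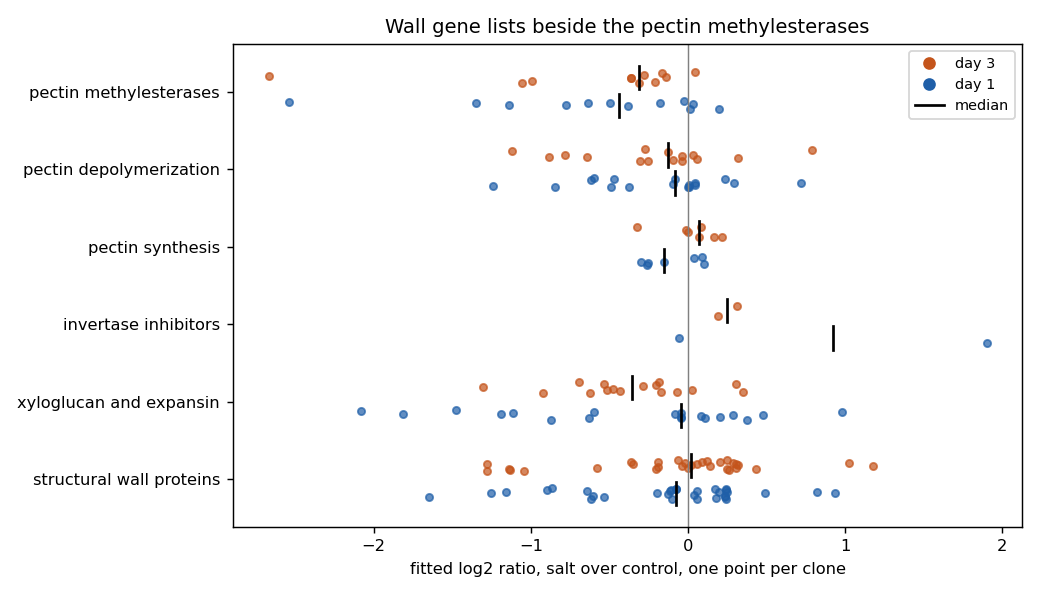
Fitted log2 ratios of salt over control per clone for the pectin methylesterases and 5 lists of other wall genes, with day 3 in orange above day 1 in blue and a black bar at each median. The median of the pectin methylesterases is -0.31 on day 3 and -0.44 on day 1, with STMIU31 as the lowest clone drawn on both days.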

How the data were processed

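RNA was taken from 100 mg of leaf and labelled with Cy3 or Cy5, per the labels' protocols, with salt in Cy5 on replicate 2 and in Cy3 on replicates 1 and 3. The authors deposited a log2 ratio for each clone on each array, with base 2 assumed. How spots were scanned, filtered and normalized is not given in the sources used here. A p-value for each clone and day, from a one-sample test per the file headers, was deposited too and enters as a count only.

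Annotation and value tables were joined by the 6 values per clone (10499 of 10499 matched, 8 clones sharing their values with another). Using limma 3.58.1 (R 4.3.3), each clone was fitted with coefficients for the days and for the dye, 1 variance per clone over both days and Benjamini-Hochberg adjustment over all clones tested (9032 on day 3, 9738 on day 1, 9028 for the average and the difference), two-sided, at 0.05. A clone was tested where at least 2 arrays of a day were measured, the dye term could be estimated and it had more values than fitted terms. The SE and p measure the spread left between biological replicates after the day and dye terms, pooled over both days and moderated across clones. Dye and replicate 2 cannot be told apart, so a deviation that replicate 2 shared on both days is not part of that spread. Precision is limited by 3 arrays a day. The fit was tested on simulated ratios. Tables and plots were made with Python 3.11.15, pandas 2.3.3 and matplotlib 3.10.9.

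The members and lists were chosen with earlier results of these data known. All members are named, and in each other list up to 2 clones per direction and day with the largest ratio among those past the threshold. STMGU47, STMGT42, STMID50, STMIK90 and STMJN80 were named outside that rule, after their values were seen. Word patterns were applied as spelled, so beta-D-galactosidase was taken with beta-galactosidase. Other settings tried were no dye term, scaling or centring of arrays, clones on all arrays only, a threshold of 0.1, a replicate block, robust moderation, averaging of clones with one annotation, and each array left out in turn.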

Additional observations from a re-analysis of the deposited data

Results flagged for a closer look

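Among the clones named by the rule from the other wall lists, 9 differed between the days by a test of the difference (day 3 minus day 1, limma, adjusted p under 0.05 over all clones), as did 11.6% of all clones tested. They had been named for passing on one of the days, and the unnamed clones of the lists are not included, so the count says nothing about the lists.

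The difference was positive for extensin clones STMGX29 (2.33, SE 0.30, adjusted p = 0.00264) and STMIA95 (1.64, SE 0.21, adjusted p = 0.0022), for the alpha-expansin STMDH16 (1.84, SE 0.18, adjusted p = 0.000713) and for expansin 11 STMGB59 (1.57, SE 0.27, adjusted p = 0.00727). It was negative for the LeXET2 clones STMDB57 (-1.67, SE 0.29, adjusted p = 0.00826) and STMER63 (-1.40, SE 0.24, adjusted p = 0.0081), the invertase inhibitor STMJC15 (-1.59, SE 0.16, adjusted p = 0.000714), the beta-galactosidase STMGR50 (-1.50, SE 0.19, adjusted p = 0.00221) and the glycine-rich STMHV75 (-0.58, SE 0.16, adjusted p = 0.0447). In STMGX29, STMIA95, STMGR50, STMDB57 and STMER63 all 3 arrays of one day lay on one side of 0 and all 3 of the other day on the other side.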

How the results depend on the processing

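The members' counts were recomputed under 14 settings, and those of the other lists under the replicate block, no dye term, scaling, centring and each array left out. STMIU31 and STMJK74 passed on both days under every setting, and STMGF63 under all but the one without replicate 2 of day 3, where it did not pass on that day. With each array left out in turn, members called lower numbered 2 to 3 on day 3, 3 to 7 on day 1 and 3 to 7 for the average, with the fewest for the average (3) without replicate 2 of either day, and 0 members were called for the day difference. At an adjusted p under 0.1, 1 of 11 members was called for the difference, as were 1504 of 9028 clones. The replicate block changed no call of a member. Same-numbered arrays of the 2 days correlated in their deviations with r of 0.046, 0.596 and 0.451. Replicate 2 had salt in Cy5 on both days, so pairing by number and dye cannot be told apart in this check. The main fit did not pair the samples by number, and the replicate block is the setting that did. For replicate 1 of day 1 the highest correlation was 0.198, with replicate 3 of day 3.

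Of the other lists, leaving out single arrays gave 1 to 5 calls in pectin depolymerization on day 3 (5 on all arrays) and 0 to 6 on day 1 (4). It gave 1 to 5 in xyloglucan and expansin on day 3 (2) and 3 to 10 on day 1 (9), and 5 to 8 in structural wall proteins on day 3 (7) and 3 to 12 on day 1 (12). The lowest of each came without replicate 2 of the day concerned, and the 1 of xyloglucan and expansin on day 3 also without replicate 1 of day 1. Without the dye term pectin depolymerization had 3 calls on day 3, and with the replicate block xyloglucan and expansin had 6. Over all clones, leaving out single arrays gave 171 to 806 calls on day 3 (579 on all arrays), 536 to 2534 on day 1 (1800) and 311 to 1175 for the difference (1045). For the average it gave 539 to 2358 (1610). Without the dye term 651 clones passed for the difference, and on day 3 896 passed with scaled arrays and 887 at an adjusted p under 0.1. Averaging clones of one annotation, which leaves fewer to test, gave 645 for the difference. The extensins STMGX29 and STMIA95 share an annotation with 3 other clones, and averaged with them gave -0.22 on day 3 and -0.50 for both days. Of 1482 recomputed values of single clones, 1447 moved by less than 1 SD between arrays, 31 by more, and 4 turned, the last being those of the extensins. The number of arrays, and values missing on day 3, limit what can be seen.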
